A study of Mus musculus with 12 samples.

Results

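Ribosome-bound mRNA was compared between the livers of mice lacking MAF1 (Maf1 KO) and of wild-type (WT) mice, using the 6 ribosome footprint libraries among the 12 libraries of the series. The members were the footprint columns of mice KO1, KO2 and KO4 and of mice WT1, WT2 and WT3, so that each genotype was represented by 3 mice. All mice were of the C57BL/6 strain. Their age is given as 12 to 14 weeks in one label field and as 12 weeks in the protocol, which has them killed at 9 PM. One field describes them as refed, where the methods of the study have them fed ad libitum. Deposited values were log2 normalized tag counts per transcript, here called scores. They were averaged over the transcripts of a gene, which gave 11587 genes, and the median of each library was subtracted, so that a centred score of 0 is the median gene of that liver. Every difference below is Maf1 KO minus WT on this centred log2 scale unless stated otherwise. The number of reads behind a score is unknown, and no counting interval is given. Maf1 itself was not analysed, which leaves the genotypes as labelled, and the sources used say nothing of how the allele was made.

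MAF1 represses transcription by RNA polymerase III, which makes tRNA, 5S rRNA and other short RNAs needed for protein synthesis. In ribosome profiling, nuclease removes mRNA that is not covered by a ribosome, and the protected footprints are sequenced, so that a footprint score rises both with the amount of an mRNA and with the number of ribosomes on it. The mRNAs of ribosomal proteins and of many translation factors begin with a 5′ terminal oligopyrimidine (TOP) tract, a C followed by pyrimidines, through which mTOR signalling controls their loading onto ribosomes. Liver secretes most plasma proteins and adjusts lipid and glucose metabolism to feeding, and the translation of its TOP mRNAs is known to rise after a meal.

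The libraries were alike in their overall profile. Across genes, which are not independent replicates, Pearson's r was 0.965 to 0.988 between livers of the same genotype and 0.969 to 0.984 between genotypes. The first principal component of the centred scores held 37.9% of the variance and did not separate the genotypes: WT3 lay at 36.8, WT1 at -33.2 and the Maf1 KO livers between them. All 15 hepatocyte markers were measured, with list medians of 8.74 to 9.37 above the median gene. Livers differed in markers of other tissues. Of the 38 exocrine pancreas markers 3 were measured, and their summed level, in multiples of the median gene of a liver, was 64.1 in WT3 and 3.97 to 11.01 in the other livers. In total RNA WT3 did not stand apart, the pancreas list median being -1.08 there and -1.16 and -1.32 in WT1 and WT2. The median of 4 measured adipose markers was -0.12 and -0.10 in WT1 and WT2 and -2.71 to -1.86 in the other livers, the complement factor and adipocyte product Cfd standing at 0.09 and 1.12 in WT1 and WT2 and between -2.21 and -0.99 elsewhere. Of the neutrophil markers 1 of 11 was measured, of the lymphocyte markers 0 of 12.

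Whether the whole footprint profile was shifted can be asked only before centring. Scores were scaled to aligned tags, and whether they also hold the factor from the added Drosophila extract is unknown. Without that factor the library medians could not show a shift in total footprints, and the test below would not bear on it. The median footprint score of the deposited table was 7.37, 7.48 and 8.02 in the WT livers and 7.17, 7.57 and 7.56 in the Maf1 KO livers. The groups overlapped. Their means, 7.43 ± 0.23 in Maf1 KO and 7.62 ± 0.35 in WT (SD, n = 3 each), differed by -0.19 (exact permutation test, two-sided, p = 0.6; the smallest p that 3 against 3 mice allow is 0.1). The difference was 0.01 without WT3. On the deposited scale every gene is lower by this -0.19 than in the centred comparison, so a centred difference between 0 and 0.19 lies below 0 there.

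Gene by gene, the footprints of Maf1 KO and WT liver differed little. Of 11587 genes, 92.5% differed by less than 0.5, and the 5th and 95th percentiles of the differences were -0.41 and 0.47. Differences over 1 were found for 74 genes and under -1 for 41, but only 6 and 7 of these had a mean score above that of the median gene. With limma and Benjamini-Hochberg adjustment over all genes, 0 genes (0%) passed at an adjusted p under 0.05, the smallest adjusted p being 0.513. At an unadjusted p under 0.05 there were 464 genes (4.0%), of which 241 (2.08%) were higher and 223 (1.92%) lower in Maf1 KO. That count was 806 without WT3 and 301 without KO2. All 3 Maf1 KO livers lay above all WT livers in 560 genes (4.83%) and below them in 494 (4.26%). Replicate spread depended on abundance, the median SD within a genotype being 0.37 in the lowest quartile of genes by mean score and 0.23 in the highest.

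**Figure D1:**
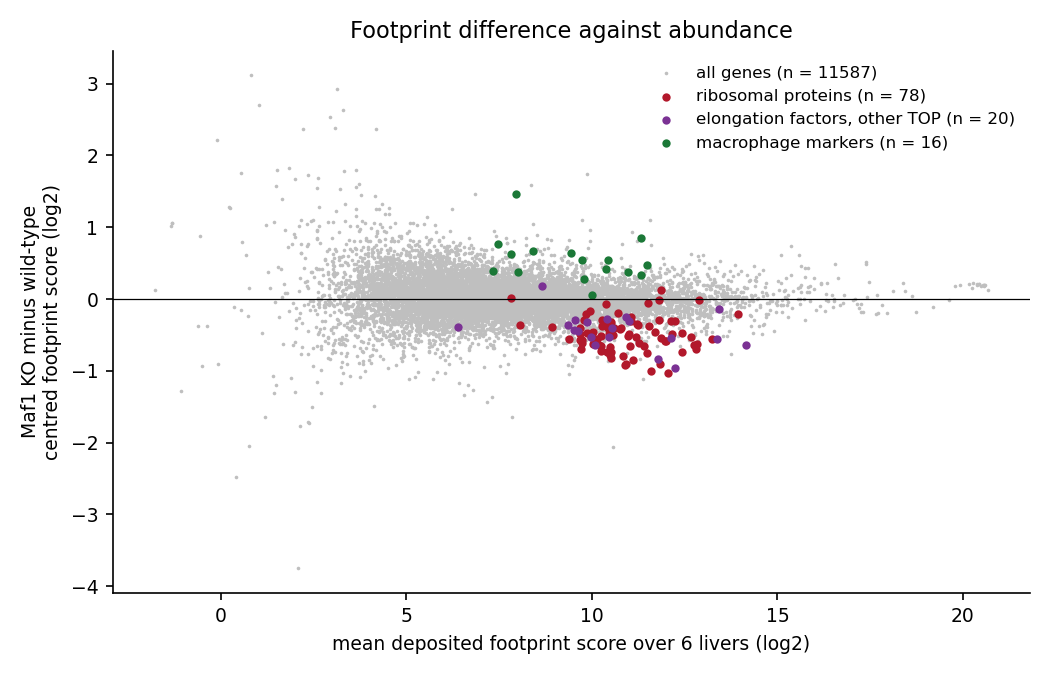
Footprint difference of each gene against its abundance. The x axis is the mean deposited footprint score over the 6 livers (log2), the y axis the centred difference, Maf1 KO minus WT (log2). Grey points are all 11587 genes, and coloured points are 78 ribosomal protein mRNAs, 20 mRNAs of elongation factors and other TOP genes, and 16 macrophage markers. Differences scatter more at low abundance, 76 of the 78 ribosomal protein points lie below 0, and all 16 macrophage markers lie above it.

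Among the 33 gene lists, ribosomal proteins of both subunits had the lowest medians, although single genes such as Elk1 and Nnmt lay lower. Of 31 measured proteins of the small (40S) subunit 30 lay below 0, with a median difference of -0.51, and of 47 of the large (60S) subunit 46 lay below 0, with a median of -0.49. The median over all genes was 0.01, with 5651 of 11587 below 0. At an unadjusted p under 0.05, 20 of the 40S and 28 of the 60S mRNAs were lower and none was higher, where 1.92% of all genes were lower, and 0 of the 78 passed over all genes in limma. Maf1 KO livers lay below every WT liver in 51 of the 78, against 4.26% of all genes. This list was chosen with such values known, so its counts are a description and not independent evidence of its direction.

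In each liver the same picture was seen in the list medians. The 40S median stood at 3.81, 3.85 and 3.97 above the median gene in the WT livers and at 3.29, 3.11 and 3.29 in the Maf1 KO livers. The 60S median was 3.23, 3.38 and 3.57 in WT and 2.79, 2.73 and 3.09 in Maf1 KO. The genotypes did not overlap in either subunit. The 3 Maf1 KO livers also lay below the WT livers when the levels were summed: ribosomal protein footprints amounted to 1242 to 1411 times the median gene in WT and to 889.6 to 1015 times in Maf1 KO. Leaving out any mouse gave medians for all 78 mRNAs between -0.56 and -0.46. At an unadjusted p under 0.05, 34 were lower without KO2, where 1.41% of all genes were, and 56 without KO4, where 2.99% were. These were the lowest and highest counts. Without KO1 and WT3 together the median was -0.48 and the count 31, where 1.85% of all genes were lower. Footprint differences also moved with coding length, genes other than ribosomal proteins having a median of -0.12 under 300 bases and of -0.04 from 300 to 600 bases, and the part of length in the ribosomal protein difference was not tested.

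Rps16, a 40S protein, had centred footprint scores of 4.72, 4.36 and 4.62 in WT and 3.57, 3.31 and 3.81 in Maf1 KO. Its difference of -1.004 (SE 0.18, limma adjusted p = 0.513) corresponds to a 2.01-fold lower level. Total RNA of Rps16 differed by 0.11, being 2.50, 2.50 and 1.31 in WT and 2.45, 2.25 and 1.94 in Maf1 KO, so that WT3 was the low liver there. In footprints all 3 Maf1 KO values lay below the lowest WT value, which was a condition of naming this gene.

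Rps20, of the 40S head, stood at 3.94, 4.05 and 4.06 in WT and at 3.16, 3.06 and 3.29 in Maf1 KO (difference -0.85, SE 0.15, adjusted p = 0.513). Rps18, also of the 40S head, stood at 3.92, 3.95 and 3.66 in WT and at 2.97, 2.66 and 3.17 in Maf1 KO (-0.91, SE 0.18, adjusted p = 0.740). Rpl14, of the 60S subunit, was 3.69, 3.70 and 3.73 in WT and 2.89, 2.80 and 3.04 in Maf1 KO (-0.80, SE 0.14, adjusted p = 0.513). The genotypes were separate for each of these genes, which like Rps16 were picked among genes without overlap. The WT values of Rpl14 lay closest together. Rpl37a had the lowest difference of all 78, -1.03 (SE 0.27), but also a wide spread, at 4.80, 5.59 and 4.68 in WT and 3.92, 3.70 and 4.37 in Maf1 KO. Rpl22 (-0.75) and Rpl36a (-0.64) were likewise picked among genes without overlap. Rpl11 (-0.46) also did not overlap between genotypes, while Rplp2, a protein of the 60S stalk, did (-0.56).

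A few ribosomal protein mRNAs did not share the difference. The 2 mRNAs above 0, named after their values were seen, were Rps29 (0.13, SE 0.24) and Rpl29 (0.02, SE 0.22), which lie below 0 on the deposited scale. Ribosomal protein genes have many processed pseudogenes, and tags shared with them could be split or lost in counting. Gm15450, annotated in RefSeq (GRCm38.p6) as a pseudogene of Rps23, was measured at 2.24, 2.22 and 2.41 in WT and at 1.44, 1.32 and 1.36 in Maf1 KO (-0.91, SE 0.15, adjusted p = 0.513), values that may contain tags of Rps23.

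**Figure D2:**
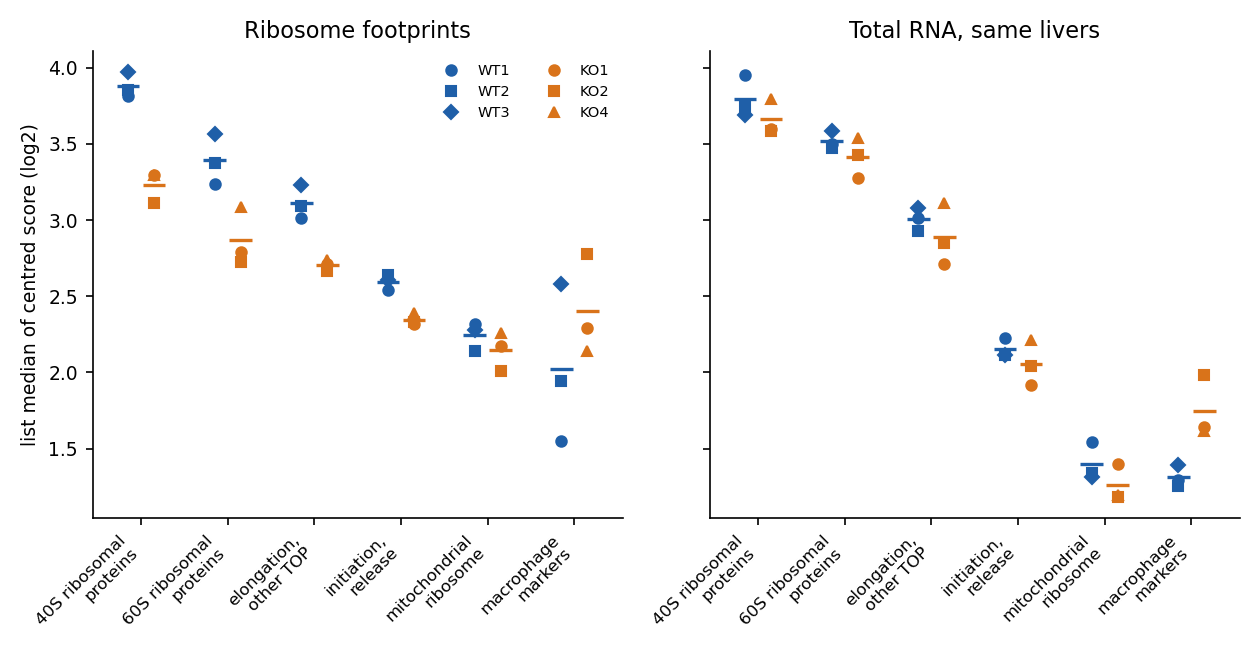
Median centred score of 6 gene lists in each liver, for ribosome footprints (left) and total RNA (right). The y axis is the list median above the median gene of the liver (log2), blue symbols are WT1, WT2 and WT3, orange symbols KO1, KO2 and KO4, and short lines the mean of 3 livers. In footprints the genotypes are separate for 40S proteins (3.81 to 3.97 against 3.11 to 3.29), 60S proteins and elongation factors, whereas in total RNA they overlap, and macrophage markers overlap in footprints.

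Elongation factors and other TOP mRNAs lay below 0 in 19 of 20 cases, with a median of -0.42. At an unadjusted p under 0.05, 9 were lower and 0 higher, where 1.92% of all genes were lower, and 0 passed over all genes. Without KO1 and WT3, 5 were lower, where 1.85% of all genes were. The list median was 3.01, 3.09 and 3.23 in WT and 2.71, 2.66 and 2.74 in Maf1 KO, without overlap. Tpt1, which encodes the growth-related protein TCTP and is a classical TOP mRNA, had the smallest p of all genes. It stood at 5.23, 5.15 and 5.23 in WT and at 4.31, 4.15 and 4.27 in Maf1 KO, a 1.94-fold lower level (-0.96, SE 0.15, limma adjusted p = 0.513), whereas its total RNA differed by 0.00. Eef1b2, a subunit of the exchange factor that recharges elongation factor 1A with GTP, was 4.77, 4.57 and 4.66 in WT and 3.94, 3.55 and 3.98 in Maf1 KO (-0.84, SE 0.17). Eef1a1, elongation factor 1A itself, differed by -0.63 (SE 0.19) without overlap, and Eif5a by -0.14 (SE 0.16) with overlap. Vim, the intermediate filament gene of mesenchymal cells, was the only member above 0 (0.18, SE 0.15; -0.01 on the deposited scale) and was named after its value was seen.

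The starts of these genes were read from the NCBIM37 genome at the GENCODE vM1 starts of coding transcripts, taking for each gene the start with the longest run that begins with C and holds only C and T on the strand of the gene, within 5 bases of the start. The windows below hold 15 bases before the annotated start and 15 bases from it on, 5′ to 3′, with runs of at least 5 bases in capitals. They are shown for some of the mRNAs just described, long runs first, including Rps16 and Rpl37a, the ribosomal protein mRNAs with the lowest differences, and for Me1, the gene with the smallest p among those higher in Maf1 KO. They are at chr9:120480617-120480646 (plus strand) for Rpl14, chr17:34092594-34092623 (minus) for Rps18, chrX:131120214-131120243 (plus) for Rpl36a, chr14:76245094-76245123 (plus) for Tpt1, chr4:3762798-3762827 (minus) for Rps20, chr7:29135656-29135685 (plus) for Rps16, chr1:72757819-72757848 (plus) for Rpl37a and chr9:86589933-86589962 (minus) for Me1.
Rpl14: cagggcgggcCCTCTCTCTTCTCgctgagc
Rps18: cgtcacttccgCTCTCTCTTCCacaggagg
Rpl36a: ctctagcctctCTCTTTCCgagctgctagc
Tpt1: ccgagcgtgcCCTCTatatgaggttgggga
Rps20: ggcggggcggttcctgttccgggtcacaaa
Rps16: acacgtcccctctcaggcttcgacgtcagc
Rpl37a: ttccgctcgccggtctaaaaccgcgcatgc
Me1: atgccgccgtgactcagcgCTTCTCgcggg
Counted from a C at most 5 bases from the start, the runs are 13 bases in Rpl14, 11 in Rps18, 8 in Rpl36a, 5 in Tpt1 and 6 in Me1, and in Rpl14, Rpl36a and Tpt1 the pyrimidines go on further upstream of the marked part. Rps20, Rps16 and Rpl37a have no run of 5 or more there, and Rps16 has a stretch of pyrimidines that begins farther upstream.

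A run of at least 8 bases was found in 32 of 77 ribosomal protein genes (41.6%) and in 1045 of the 10855 genes with such a start (9.63%). The median footprint difference of ribosomal protein mRNAs was -0.55 with a run of at least 8 and -0.49 with a run of 4 or less, so both kinds lay below 0. Genes that hold a run of at least 8 and encode no ribosomal protein had a median of 0.02, like the median gene. Annotated starts can be off by some bases, and a window without a run says only that these letters are not there. RefSeq starts were given for 78.9% of the genes, under the 80% needed for a check over all genes, and the GENCODE starts were an alternative added after the data were seen.

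Initiation and release factors, which place the ribosome on the start codon and free the finished protein, had a smaller difference, with 27 of 37 below 0 (5651 of 11587 over all genes), a median of -0.11 and 2 lower at an unadjusted p under 0.05, where 1.92% of all genes were lower. Their list median was 2.54, 2.64 and 2.61 in WT and 2.32, 2.33 and 2.39 in Maf1 KO, without overlap, but the median difference was -0.04 under quantile normalization and -0.05 without WT3. Aminoacyl-tRNA synthetases, which charge tRNA, had a median of -0.06 (15 of 23 below 0, none past an unadjusted p of 0.05). Proteins of the mitochondrial ribosome had a median of -0.09, with 56 of 76 below 0. RNA polymerase III, the direct target of MAF1, was represented by 24 subunits and factors with a median of -0.04 (14 below 0, none past an unadjusted p of 0.05). RNA polymerase I and ribosome assembly genes had a median of -0.10 (20 of 25 below 0) and the signal recognition particle and Sec61 translocon, which bring secreted proteins to the endoplasmic reticulum, one of -0.08 (20 of 25). ER chaperones and unfolded protein response genes lay below 0 in 21 of 23 cases with a median of -0.13.

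**Figure D3:**
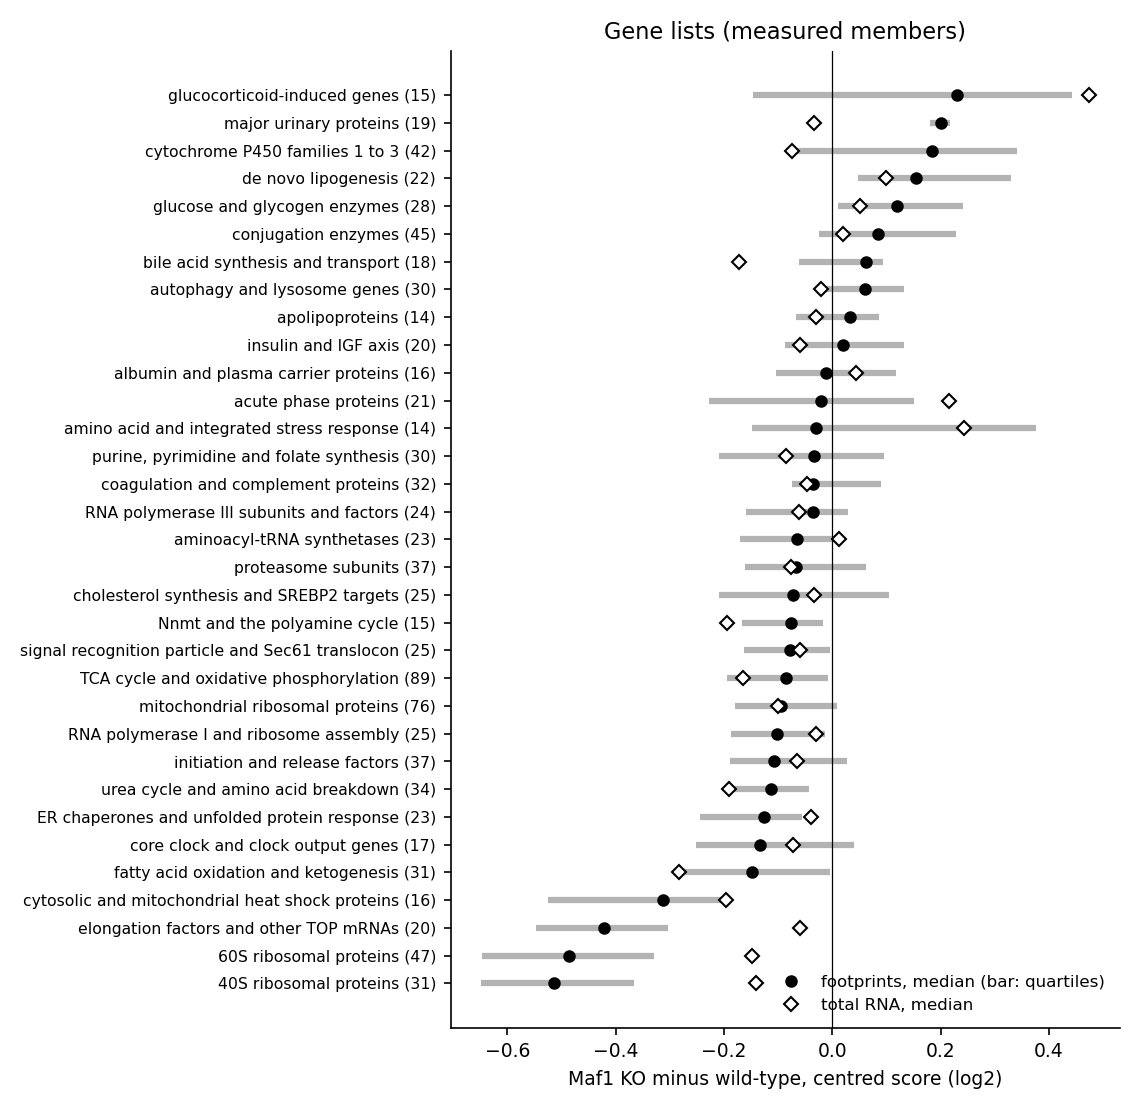
Median difference of each of 33 gene lists, Maf1 KO minus WT (x axis, centred log2 score). Filled circles are ribosome footprints with a grey bar from the lower to the upper quartile of the members, open diamonds total RNA of the same livers, and the number of measured members follows each name. The 40S, 60S and TOP lists lie at -0.51, -0.49 and -0.42 in footprints and at -0.14, -0.15 and -0.06 in total RNA.

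Footprint differences were next set beside total RNA of the same mice. Across genes the 2 differences had a Pearson's r of 0.39 and a Spearman's rho of 0.37 (11587 genes, which share libraries and mice; a description). Ribosomal protein mRNAs lay below 0 in total RNA in 71 of 78 cases (6187 of 11587 over all genes), with a median of -0.14 where footprints had -0.51. The difference between footprints and total RNA, computed within each mouse and tested with limma, passed the adjusted threshold in 0 of 11587 genes and an unadjusted p of 0.05 in 351 (3.03%), of which 204 (1.76%) were lower in Maf1 KO. Over all genes 5432 of 11587 lay below 0 in it. Among ribosomal proteins 72 of 78 lay below 0 in it, with a median of -0.36, and 17 were lower at an unadjusted p under 0.05. Elongation factors and other TOP mRNAs lay below 0 in 20 of 20 cases (median -0.31, 5 lower at an unadjusted p under 0.05). Rpl14 differed by -0.72 (SE 0.18) and Tpt1 by -0.96 (SE 0.28) in footprints beyond total RNA, each with an adjusted p of 1.00.

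**Figure D4:**
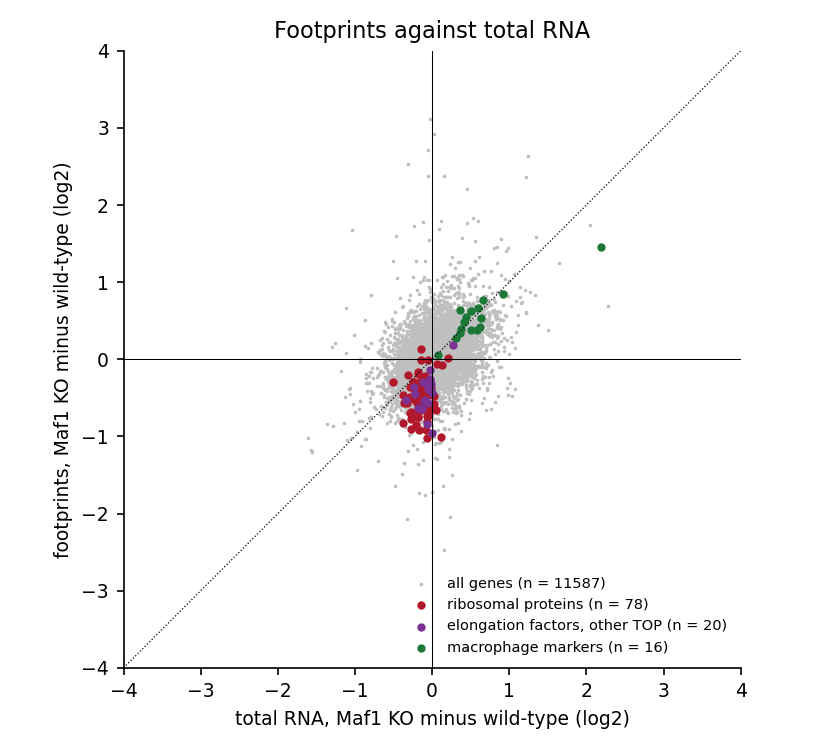
Difference in ribosome footprints (y axis) against difference in total RNA (x axis) of the same livers, Maf1 KO minus WT, centred log2 scores. Grey points are all 11587 genes, coloured points ribosomal proteins, elongation factors and other TOP genes, and macrophage markers, and the dotted line marks equal differences. Of the ribosomal protein points 72 of 78 lie below the line, with medians of -0.51 in footprints and -0.14 in total RNA, while macrophage markers (0.51 and 0.50) lie along it.

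Outside the translation machinery, the lowest p among mRNAs with fewer footprints in Maf1 KO belonged to genes of several kinds. Cox7a2l, which encodes an assembly factor of respiratory supercomplexes, stood at 2.33, 2.33 and 2.29 in WT and at 1.55, 1.58 and 1.49 in Maf1 KO (-0.78, SE 0.14, adjusted p = 0.513). Cox7a2l, and Aadat and F11 that follow, were picked for a small p among genes without overlap, so their separation was set by that choice. The total RNA difference of Cox7a2l was -0.30. Aadat, a mitochondrial aminotransferase of lysine breakdown, stood at 3.12, 3.12 and 3.26 in WT and at 2.46, 2.55 and 2.38 in Maf1 KO (-0.70, SE 0.14, adjusted p = 0.763), and F11, coagulation factor XI, at 3.30, 3.22 and 3.30 against 2.75, 2.51 and 2.44 (-0.71, SE 0.15, adjusted p = 0.829). In both, total RNA differed by a similar size (-0.69 and -0.56). Serf1, whose mean score was below that of the median gene, had an adjusted p of 0.513, with 0.73, 0.35 and 0.33 in WT and -0.58, -1.13 and -0.96 in Maf1 KO (-1.36, SE 0.21; total RNA -0.19).

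Me1, which encodes cytosolic malic enzyme, a source of NADPH for lipid synthesis, led the mRNAs with more footprints in Maf1 KO. Its footprint scores were 3.13, 3.62 and 3.71 in WT and 4.70, 4.61 and 4.49 in Maf1 KO, a 2.15-fold higher level (1.11, SE 0.19, limma adjusted p = 0.513). Total RNA of Me1 was 2.92, 3.11 and 2.90 in WT and 4.01, 4.01 and 4.09 in Maf1 KO, and it rose by 1.06 (adjusted p = 0.0157), being one of 2 genes (0.0173%) past the threshold there. The genotypes did not overlap in either measure, which in footprints was a condition of naming this gene. Footprints exceeded total RNA by 0.05. Acacb, the mitochondrial acetyl-CoA carboxylase that restrains fatty acid oxidation, was 0.51, -0.21 and 0.75 in WT and 1.73, 0.97 and 1.48 in Maf1 KO (1.04, SE 0.28; total RNA 0.94). Angptl4, a secreted inhibitor of lipoprotein lipase, was 2.92, 3.28 and 3.03 in WT and 3.73, 4.44 and 3.85 in Maf1 KO (0.93, SE 0.21; total RNA 0.73).

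Other mRNAs of this group were Acnat2, a peroxisomal acyltransferase (0.72), Tbx3, a transcription factor of the liver (0.81, against 0.16 in total RNA), the phosphatase-like gene Hdhd3 (0.77), the linker histone gene Hist1h1c (0.75) and Tmem30b, a subunit of phospholipid flippases (0.48). Folr2 (0.84), Lyz1 (1.10), Icam1 (0.62) and Unc93b1 (0.52) have known expression in macrophages or endothelium. Lyz1 is a near-identical copy of Lyz2, and Hist1h1c belongs to a multigene family, so tags may be shared. Each of these differed without overlap of the genotypes, which was a condition of naming them, and none passed over all genes (limma, adjusted p of at least 0.513).

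**Figure D5:**
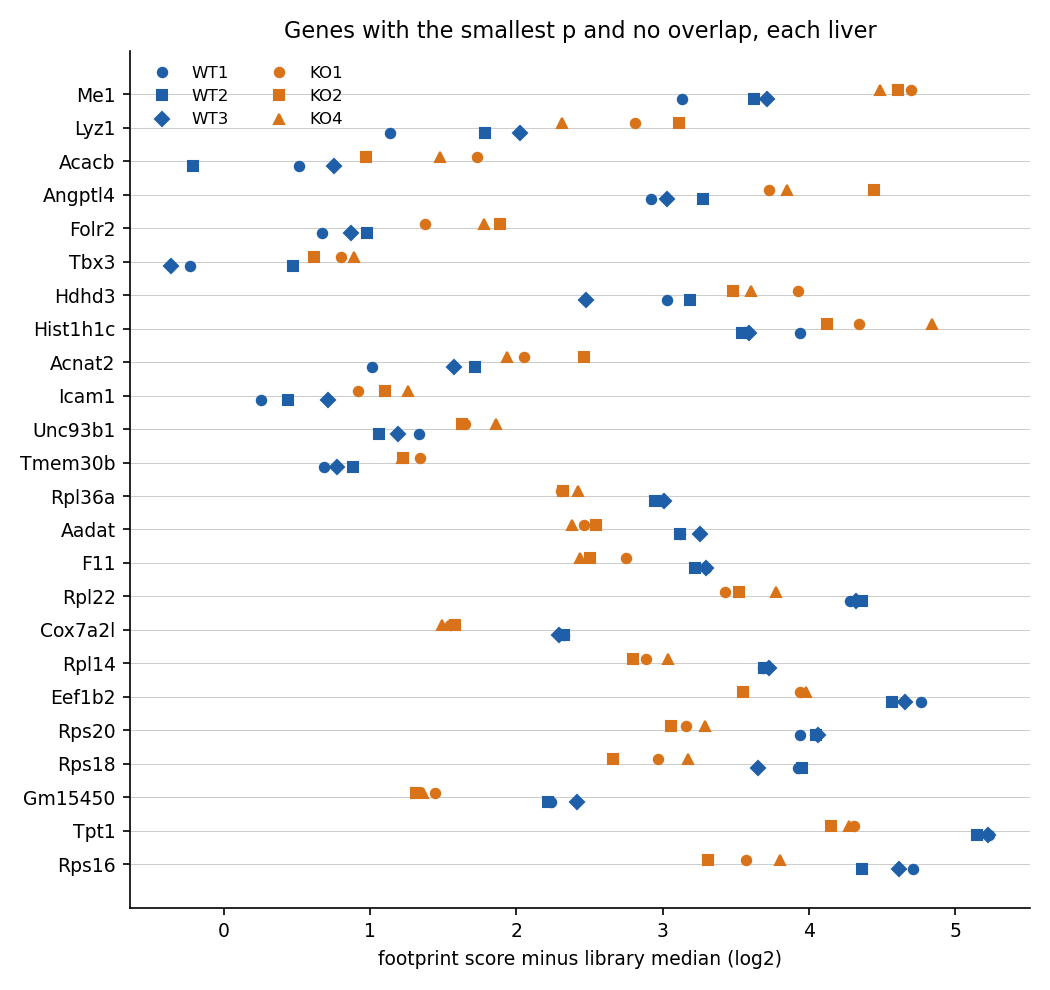
Centred footprint score of 24 genes in each liver (x axis, log2 above the median gene). The genes are the 12 higher and the 12 lower in Maf1 KO with the smallest p among abundant genes whose genotypes do not overlap, ordered by their difference. Blue symbols are WT1, WT2 and WT3 and orange symbols KO1, KO2 and KO4. Tpt1 lies between 5.15 and 5.23 in WT and between 4.15 and 4.31 in Maf1 KO, and Me1 between 3.13 and 3.71 and between 4.49 and 4.70.

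De novo lipogenesis genes, which turn carbohydrate into fat, lay above 0 in 17 of 22 cases in footprints with a median of 0.15 (-0.04 on the deposited scale), where 5936 of 11587 genes lay above 0. The median ran from 0.10 without WT2 or KO1 to 0.26 without WT3. Me1 and Acacb were the 2 members past an unadjusted p of 0.05, where 2.08% of all genes were higher. There were 4 such members without WT3, where 3.96% of all genes were higher, and 4 without KO2, where 1.19% were. Total RNA had a median of 0.10. Scd1, the main stearoyl-CoA desaturase of liver, stood at 7.06, 6.83 and 8.51 in WT and 8.72, 7.48 and 8.39 in Maf1 KO (0.73, SE 0.46), WT3 being the WT liver within the Maf1 KO range. Its total RNA was 5.56, 6.01 and 5.94 in WT and 7.26, 6.52 and 7.19 in Maf1 KO (1.15, limma adjusted p = 0.195), without overlap. Of the genes that earlier MAF1 work examined, fatty acid synthase Fasn differed by 0.33 (SE 0.33), acetyl-CoA carboxylase Acaca by 0.15 (SE 0.24; -0.04 on the deposited scale) and Tbp, the TATA-binding protein, by -0.12 (SE 0.35). The genotypes overlapped in all 3. Glucose and glycogen enzymes lay above 0 in 23 of 28 cases with a median of 0.12 (-0.07 on the deposited scale).

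Fatty acid oxidation and ketogenesis genes were on the other side, with 24 of 31 below 0 and a median of -0.15 in footprints and 29 of 31 below 0 and a median of -0.28 in total RNA. Over all genes 5651 of 11587 lay below 0 in footprints and 6187 in total RNA. The footprint median was -0.28 without WT3, -0.25 without KO2, -0.09 without KO1 and -0.06 without WT2. None passed an unadjusted p of 0.05, and Acaa2, the mitochondrial thiolase, differed by -0.08 (SE 0.20). Heat shock proteins lay below 0 in 15 of 16 cases with a median of -0.31, Dnaja3 (0.06, named after its value was seen; -0.13 on the deposited scale) being the exception. Hspa8, the constitutive HSP70, stood at 5.31, 5.29 and 5.47 in WT and 4.80, 5.10 and 4.60 in Maf1 KO (-0.52, SE 0.18; total RNA -0.54), and Hsp90ab1 differed by -0.25 (SE 0.19) with overlap. The list medians overlapped between genotypes, and the median difference was -0.15 without KO4 and -0.49 without KO2.

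Secreted proteins had median footprint differences near 0 that depended on the mice compared. Albumin and plasma carriers had a median of -0.01, apolipoproteins of 0.03, acute phase proteins of -0.02 and coagulation and complement proteins of -0.04, F11 being the member of the last that had a small p. Without WT1 carriers were at -0.19 and acute phase proteins at -0.20, without WT3 at 0.11 and 0.19, and without KO1 and WT3 at 0.21 and 0.37. Alb differed by 0.13 (SE 0.37), Ttr, the thyroid hormone carrier, by 0.22 (SE 0.25) and Apoa1, the main protein of high density lipoprotein, by -0.19 (SE 0.28), and none passed an unadjusted p of 0.05. In total RNA acute phase genes lay above 0 in 19 of 21 cases (5400 of 11587 over all genes), with a median of 0.22. Their footprints minus total RNA lay below 0 in 19 of 21 (5432 of 11587 over all genes), with a median of -0.22 and none past an unadjusted p of 0.05. Total RNA medians of carriers, apolipoproteins and coagulation and complement proteins were 0.04, -0.03 and -0.05. Cytochrome P450 genes had a median of 0.18 in footprints (27 of 42 above 0; -0.0050 on the deposited scale) against -0.08 in total RNA, and of 0.37 without WT2, 0.05 without WT3, 0.08 without WT1 and 0.10 without KO2 or KO4, Cyp2e1 differing by 0.05 (SE 0.25) and Cyp3a11 by 0.43 (SE 0.32) with overlap. Conjugation enzymes had a median of 0.08 (-0.11 on the deposited scale), Gstp1 differing by 0.48 (SE 0.30). The 19 major urinary protein genes, near-identical copies whose tags cannot be told apart, had a median of 0.20, and of 0.0049 under quantile normalization, and it ran from -0.0042 without KO2 to 0.52 without KO1.

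All 16 measured of 17 macrophage markers lay above 0, with a median of 0.51 in footprints and 0.50 in total RNA, where 5936 of 11587 genes lay above 0. At an unadjusted p under 0.05, 6 were higher, against 2.08% of all genes, and 0 passed over all genes. Of the most abundant markers, Cd5l, a secreted protein of Kupffer cells, stood at 3.67, 3.62 and 3.84 in WT and at 3.91, 4.39 and 4.26 in Maf1 KO (0.48, SE 0.17), and Clec4f, a Kupffer cell lectin, differed by 0.34 (SE 0.19). The others past the unadjusted threshold, named after their values were seen, were the scavenger receptor Marco (1.46), lysozyme Lyz2 (0.85), Timd4 (0.77), the growth factor receptor Csf1r (0.55) and the complement gene C1qc (0.54).

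The livers overlapped in the macrophage list, with medians of 1.55, 1.94 and 2.58 in WT and 2.29, 2.78 and 2.14 in Maf1 KO, and summed levels of 66.8 to 108.5 times the median gene in WT and 100.5 to 141.1 times in Maf1 KO. WT3 was the WT liver within the Maf1 KO range. In total RNA the list medians did not overlap, at 1.29, 1.26 and 1.39 in WT and 1.64, 1.98 and 1.62 in Maf1 KO. The number of markers past an unadjusted p of 0.05 was 14 without WT3, 1 without WT1, 1 without WT2, 0 without KO2, 6 without KO1 or KO4 and 12 without KO1 and WT3, and it was 1 on the deposited scale. The share of all genes higher at that threshold was 3.96% without WT3, 2.57% without WT1, 1.86% without WT2 and 1.19% without KO2. It was 1.51% without KO1, 1.88% without KO4, 2.80% without KO1 and WT3 and 0.41% on the deposited scale. Markers of sinusoidal endothelium had a median of 0.10 (10 of 13 above 0; -0.09 on the deposited scale) and those of stellate cells and fibroblasts of 0.00 (7 of 14). In bulk liver, more cells of a type and more RNA per cell cannot be told apart.

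Genes of the amino acid and integrated stress response spread widely around a median of -0.03, from -1.26 to 0.83, in 14 measured members. Of these 6 lay above 0 and 8 below. In total RNA the median difference was 0.24, with 9 of 14 above 0 (5400 of 11587 over all genes). The list medians in total RNA were -0.83, -0.90 and -0.91 in WT and 0.02, -0.16 and -0.28 in Maf1 KO, without overlap. In footprints the most abundant members, Cth and Shmt2, differed by -0.16 (SE 0.24) and -0.10 (SE 0.19). The following were named after their values were seen. Atf4, the transcription factor of this response, stood at 1.23, 1.34 and 1.13 in WT and at 0.28, 0.57 and 0.76 in Maf1 KO (-0.70, SE 0.18, adjusted p = 1.00; total RNA -0.32), without overlap. Atf3, a stress-induced factor, differed by -1.11 (SE 0.44) and the amino acid transporter Slc7a5 by 0.66 (SE 0.26). Asns, asparagine synthetase, had the lowest value, -1.26 (SE 0.70), which rested on WT3: it stood at -0.70, -1.42 and 1.79 in WT and at -1.96, -0.78 and -1.38 in Maf1 KO.

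On the deposited scale limma passed 10 genes (0.0863%), 4 higher and 6 lower in Maf1 KO, where 0 passed with libraries centred. In 7 of the 10 the genotypes overlapped in centred scores, the exceptions being Serf1, Elk1 and Ccdc157. The SEs given for these genes are from the centred fit, not from the fit that passed them. Nnmt had an adjusted p of 4.25e-06 in limma on the deposited scale although its livers overlapped. Why genes with so wide a spread passed there was not tested. Nnmt, nicotinamide N-methyltransferase, stood at 3.31, 3.32 and 5.60 in WT and at -0.64, 2.77 and 3.90 in Maf1 KO on the centred scale (-2.07, SE 1.04, adjusted p = 1.00; deposited scale -2.26). KO1 was low and WT3 high, and the difference was -0.74 without KO1 and 0.02 without both. Total RNA of Nnmt was 2.67, 2.52 and -0.73 in WT and -1.54, 1.94 and 3.09 in Maf1 KO (difference -0.33). WT3 was thus the highest liver in footprints but the lowest WT liver in total RNA, and the cause of this was not tested. Igfbp1, a secreted binding protein of insulin-like growth factors, was -0.01, 0.69 and 3.74 in WT and 3.39, 4.88 and 1.36 in Maf1 KO (1.74, SE 1.02), and its difference ran from 0.90 without KO2 to 2.87 without WT3.

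Cela1, an elastase of the exocrine pancreas, was -0.65, -0.26 and 4.30 in WT and -1.22, -1.34 and 1.01 in Maf1 KO (-1.64, SE 1.17; -0.06 without WT3), WT3 being the liver in which Amy2a5, the pancreatic amylase, also stood at 4.67 against 0.66 and 1.85. Lcn13, a secreted lipocalin, differed by -1.43 (SE 0.39), Derl3, an ER degradation factor, by -1.34 (SE 0.57) and Serf1 by -1.36, as described above. Elk1 differed by -3.75 (SE 0.74), with scores of -4.12, -3.00 and -3.62 in WT and of -5.73, -8.11 and -8.15 in Maf1 KO, far below the median gene. Ccdc157 (2.37), BC051062 (2.64) and mKIAA4069 (2.93) also lay below the median gene in every liver, and in BC051062 and mKIAA4069 WT3 stood at -9.53, the lowest score of that library. Without WT3 the differences of BC051062 and mKIAA4069 were 0.65 and 1.08.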

How the data were processed

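Livers were lysed in polysome buffer with Drosophila S2 extract added at 1 part to 15, and RNase I footprints and total RNA were sequenced. By the methods of the study, tags were mapped by the authors to fly (dm6) and mouse (mm9) genomes, then to coding sequences with up to 1 mismatch, rRNA tags were removed, values were normalized to aligned tags and with TMM (edgeR), and a fly-based factor was applied. No source used here names the aligner. The deposited values are log2 normalized tag counts per transcript (26260 transcripts), and the table does not say whether the fly factor is included. Centring makes this immaterial, but library medians and all results on the deposited scale depend on it. Whole reads could not be recovered, and depth is unknown.

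Scores were averaged per gene, centred on library medians (Python 3.11.15, pandas 2.3.3) and compared by limma 3.58.1 under R 4.3.3, with genotype as the only term, a variance trend and Benjamini-Hochberg adjustment (threshold 0.05). Footprints minus total RNA of the same mouse were tested alike, and library medians by exact permutation. The procedure was also run on simulated data, where it missed part of the differences put in, in footprints and in footprints minus total RNA. That 0 genes passed therefore does not mean that no gene differs. Of the gene lists 33 were described without a test, as were 11 marker lists. Members, lists and rules were chosen with earlier results of these data known. Named genes were those past the threshold centred or as deposited, the 12 smallest p in each direction among non-overlapping genes above the median mean score, genes of earlier MAF1 work, and abundant members (the top 2) of the lists described. Sequences and coordinates are from NCBIM37 with GENCODE vM1. Alternatives were the deposited scale, quantile normalization, removal of genes below the 0.25 quantile, the top transcript, no trend, robust fitting, a threshold of 0.1, a replicate block, and leaving out each mouse, or KO1 with WT3. Same-numbered mice were not treated as pairs. Some genes that the rule names are not reported here.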

Additional observations from a re-analysis of the deposited data

How the results depend on the processing

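With libraries centred, 0 genes passed the adjusted threshold in footprints, and 0 in footprints minus total RNA, under quantile normalization, without low genes, with the top transcript, without the trend, with robust fitting and without any mouse. On the deposited scale 10 genes passed in footprints and 2 (Elk1 and mKIAA4069) in footprints minus total RNA, and the medians of ribosomal proteins and of elongation factors and other TOP mRNAs were -0.70 and -0.61. Without 1 mouse these medians ran from -0.56 to -0.46 and from -0.49 to -0.34, and the library median difference from -0.31 to 0.010 (0.14 without KO1 and WT3). Where a fit left 2 mice in a group, the spread was pooled over both groups. The number of reads behind the scores limits low genes to an unknown extent.

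With the replicate number as a block (replicate block), 429 of 11587 genes passed in footprints, 180 higher and 249 lower. Of the 78 ribosomal proteins 27 passed, and 0 genes passed in footprints minus total RNA. WT and Maf1 KO share only the numbers 1 and 2, so WT3 and KO4 did not contribute to the genotype difference in this fit. Equal numbers name different mice, and the deviations of same-numbered mice had r = -0.06 and 0.10, so the mice share only a number.

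Some genes changed sign in some settings. On the deposited scale Acaca was at -0.039, Alb at -0.063, Cyp2e1 at -0.14, Dnaja3 at -0.13, Rpl29 at -0.17, Rps29 at -0.061 and Vim at -0.0091. Under quantile normalization Alb was at -0.0058. With the block, Cyp2e1 was at -0.030, Dnaja3 at -0.066, Rpl29 at -0.24 and Tbp at 0.43. Without KO1 and WT3, Amy2a5 was at 0.50, Apoa1 at 0.033, Cela1 at 0.29, Cyp2e1 at -0.10 and Nnmt at 0.020. Without 1 mouse, Acaa2 ran from -0.21 to 0.067, Acaca from -0.032 to 0.40, Alb from -0.16 to 0.33, Amy2a5 from -1.80 to 0.21, Cyp2e1 from -0.076 to 0.21, Dnaja3 from -0.015 to 0.16, Rpl29 from -0.23 to 0.15, Rps29 from -0.10 to 0.33 and Tbp from -0.38 to 0.24. The cause of these changes was not tested. Of 71 genes followed through these settings, 58 kept their direction in every setting. The 71 include the 12 genes in each direction that were picked without overlap of the genotypes. Leaving out mice could not change the direction of those genes, so the share of 58 is in part set by that choice. Of 38 list medians 12 moved by less than the spread between replicates in every setting, and 25 moved by more on the deposited scale.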

Other observations

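Medians of other gene groups were as follows. Genes of the TCA cycle and oxidative phosphorylation had a median of -0.09 (69 of 89 below 0) and amino acid breakdown together with the urea cycle one of -0.11 (29 of 34 below 0), where total RNA had medians of -0.16 and -0.19. Cholesterol synthesis genes had a median of -0.07 (17 of 25 below 0; from -0.28 without WT2 to 0.023 without WT3), bile acid genes of 0.06 (10 of 18 above 0; -0.13 on the deposited scale), proteasome subunits of -0.07 (24 of 37 below 0) and autophagy and lysosome genes of 0.06 (20 of 30 above 0; -0.13 on the deposited scale). Purine, pyrimidine and folate enzymes had a median of -0.03, genes of the polyamine cycle with Nnmt of -0.08, the insulin and IGF axis of 0.02 and clock genes of -0.13. Glucocorticoid-induced genes had a median of 0.23 in footprints and 0.47 in total RNA, with list medians of 0.70, 0.74 and 2.47 in WT and 1.12, 1.72 and 1.90 in Maf1 KO. WT3 was the highest liver, and the median ran from -0.13 without WT2 to 0.70 without WT3. Errfi1, a feedback inhibitor of growth factor receptors in that list, differed by 0.23 (SE 0.20).

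Footprint differences followed coding length. The median difference was -0.12 for 187 genes with a coding sequence under 300 bases, -0.05 from 300 to 600, -0.01 from 600 to 1200, 0.02 from 1200 to 2400 and 0.03 in 2278 genes of 2400 bases or more. Without ribosomal proteins, which are short, the first and second medians were -0.12 and -0.04, against -0.51 for ribosomal proteins. The gap between the shortest and the longest genes other than ribosomal proteins was -0.15, and it was -0.02 without KO2 and -0.29 without KO4.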
